A study of Mus musculus with 12 samples.

Results

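Interferon-stimulated genes are the genes that cells switch on when an interferon reaches its receptor, and pDCs are the cell type best known for making type I interferon. The set examined here held 41 member genes, listed by name with no rule on measured values but with earlier results of these data known. They were the subunits Ifnar1 and Ifnar2 of the type I interferon receptor and 39 genes known to respond to interferon. They were followed in 3 sorted bone marrow populations of C57BL/6 mice, namely LMPPs (lymphoid-primed multipotent progenitors, the earliest of the 3), CD115-CDPs (common dendritic cell progenitors without the receptor CD115) and BM pDCs (bone marrow plasmacytoid dendritic cells). HDAC3-KO cells came from Hdac3 fl/fl CreERT2 mice and control cells from Hdac3 fl/fl mice without CreERT2, and both received tamoxifen for 5 days, with the sort 7 days later. Each cell type had 2 HDAC3-KO and 2 control libraries, 12 in all. CreERT2 was expressed from the Rosa26 locus, which is active in nearly all tissues, so the surroundings of the sorted cells lacked HDAC3 as well. The controls carried no Cre, so Cre activity and the loss of HDAC3 cannot be told apart. No source used here states that libraries came from separate mice, so p-values measure the spread between these libraries, which may be technical. All 41 members were found in the tables of LMPPs (17445 rows) and CD115-CDPs (16821 rows), and 39 in that of BM pDCs (16896 rows), of 21088 gene IDs in all. Mx1 and Mx2 were the members not analysed in BM pDCs.

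Type I interferon binds a receptor built from IFNAR1 and IFNAR2, whose kinases JAK1 and TYK2 activate transcription factors such as STAT2 with IRF9. These bind a short DNA element, the interferon-stimulated response element, in the promoters of their target genes. The targets include RNA sensors that feed back on interferon production, enzymes and GTPases that block viral growth, and brakes such as USP18. Many of them are also expressed at a low level without infection, a state known as tonic interferon signalling.

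The core of the response element, GAAA, any 2 bases and GAAA, was searched on both strands of the 300 bases around each gene's start (250 before and 50 after it, RefSeq, GRCm38.p6, the assembly that mm10 corresponds to). Matches were allowed to overlap. Of the 41 members, 30 had an entry, and 14 of these (46.7%) held the element, against 3.99% of 27025 genes with an entry and 3.44% of all 32851 promoter windows. The element was present upstream of Ifit3, Gbp2 and Oas1a, which fell in HDAC3-KO pDCs, and upstream of Oas3, which rose there. The 200 bases before the start of these 4 genes are shown on the strand of the gene, with the element in capitals on whichever strand it was read, because they place members of opposite direction side by side. The window shown for Ifit3 is chr19:34583329-34583528 (plus strand), that for Gbp2 chr3:142620463-142620662 (plus strand), that for Oas1a chr5:120907526-120907725 (minus strand) and that for Oas3 chr5:120777660-120777859 (minus strand). These windows count from the start given in the promoter table, and for Ifit3, Oas1a and Oas3 the gene span in the RefSeq gene table begins further upstream, so that their windows overlap it.
Ifit3: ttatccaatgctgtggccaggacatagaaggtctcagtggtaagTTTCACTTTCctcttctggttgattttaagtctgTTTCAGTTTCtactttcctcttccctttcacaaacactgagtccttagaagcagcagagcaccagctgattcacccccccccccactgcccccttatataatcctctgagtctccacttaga
Gbp2: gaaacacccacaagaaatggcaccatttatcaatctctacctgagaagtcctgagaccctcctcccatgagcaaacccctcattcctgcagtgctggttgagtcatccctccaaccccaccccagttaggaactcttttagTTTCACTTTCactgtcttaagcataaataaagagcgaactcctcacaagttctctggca
Oas1a: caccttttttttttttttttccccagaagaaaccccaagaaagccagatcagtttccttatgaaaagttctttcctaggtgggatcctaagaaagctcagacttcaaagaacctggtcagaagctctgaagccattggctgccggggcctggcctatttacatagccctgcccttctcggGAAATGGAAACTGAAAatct
Oas3: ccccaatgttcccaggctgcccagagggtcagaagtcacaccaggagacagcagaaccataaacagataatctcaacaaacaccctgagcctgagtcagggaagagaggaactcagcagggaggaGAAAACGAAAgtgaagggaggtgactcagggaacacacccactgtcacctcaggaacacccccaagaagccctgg
The first bases of the 2 matches of Ifit3 lay 156 and 122 bases before the start, and the match of Gbp2 began 59 bases before it. Oas1a had 2 overlapping matches that began 20 and 14 bases before the start, and that of Oas3 began 75 bases before it. Among the 14 members with a match, 10 fell, 2 rose and 2 had no call in BM pDCs, where 22.5% of all genes fell and 21.6% rose. Among the 16 members with an entry and no match, 8 fell, 2 rose and 6 had no call. Ifi44 and Oasl2, which fell in BM pDCs, held no match in this window, and Ifih1 held 1 match that began 32 bases after its start. A match is a description of the letters in the window and not a measured binding site.

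The level of Hdac3 itself was compared between the genotypes given in the submitters' labels. LMPPs had 16.9 and 9.87 FPKM in HDAC3-KO libraries, against 56.5 and 66.4 FPKM in controls, and BM pDCs had 15.6 and 15.9 FPKM in HDAC3-KO libraries, against 38.9 and 37.8 FPKM in controls. FPKM is the number of fragments per length of transcript, scaled to the total of mapped fragments. In CD115-CDPs the HDAC3-KO libraries were at 12.1 and 0.93 FPKM and the controls at 58.2 and 39.6 FPKM. Hdac3 itself did not pass the test in CD115-CDPs (log2 change −3.52, adjusted p = 0.46, limma). It passed in LMPPs (log2 change −2.20, adjusted p = 2.2e-05, limma) and in BM pDCs (log2 change −1.15, adjusted p = 0.00011, edgeR). Only exon 3 was floxed, so reads from the other exons can remain. HDAC3-KO library 2 of the CD115-CDPs stood apart, with 11288 genes above 0 FPKM against 13684 to 15173 in the other 3 libraries of that cell type, and the correlation between the 2 HDAC3-KO libraries across genes was 0.87, against 0.98 between the controls. Control library 1 of the LMPPs held erythroid transcripts, with a summed level of 9264 FPKM over 7 erythroid markers against 105 to 279 FPKM in the other 3 libraries. The BM pDC libraries held between 18117748 and 18462220 expected counts, and the read depth of the FPKM tables is unknown. Summed over 8 pDC markers, BM pDCs had 3499 and 3105 FPKM in HDAC3-KO libraries and 7685 and 8197 FPKM in controls, and 7 of the 8 fell. The defining pDC marker Siglech was present in every pDC library, at 945 and 855 FPKM in HDAC3-KO cells and 1903 and 1951 FPKM in controls. In bulk RNA, fewer cells of a type and less RNA per cell cannot be told apart.

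In LMPPs, interferon-stimulated genes were broadly lower without HDAC3. A call was an adjusted p under 0.05 over all genes tested. Of the 41 members, 24 (58.5%) fell, against 18.8% of all genes tested, 0 rose, against 4.31% of all genes tested, and 17 had no call (limma on log2(FPKM + 0.5)). At an unadjusted p under 0.05, 33 members were lower and 1 was higher. Both HDAC3-KO libraries lay below both controls for 34 members and above both for 3. For the unadjusted counts and these library orders the share of all genes was not counted in LMPPs, so they are description only. The median log2 change of the members was −0.81, against −0.23 over all 11146 genes tested, so a member at −0.23 moved no more than the typical gene. Among all calls 81.4% were falls, a share of 49.1% after median ratio rescaling and of 52.9% after quantile normalisation. The member falls numbered 17 and 20 under these rescalings, against 8.24% and 7.84% of all genes, while Eif2ak2 passed as a rise under both. With no filter on low values, 11 members fell, against 2.76% of all genes. Mx2, among the 24 falls, reached 1 FPKM only in controls, so it was not tested when either control library was left out. Of the 24 falls, 7 did not pass when 1 library was left out, with adjusted p between 0.054 and 0.40: Cmpk2, Dhx58, Oas3 and Sp100 without control library 2, Irgm1 without HDAC3-KO library 2 or control library 2, and Ifit2 and Usp18 without HDAC3-KO library 2, control library 1 or control library 2.

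In CD115-CDPs no member passed the test in either direction, against 0.0% of all 10832 genes tested by limma. At an unadjusted p under 0.05, 8 members were lower (5.95% of all genes) and 1 was higher (3.06% of all genes). Both HDAC3-KO libraries were below both controls for 23 of 41 members (56.1%), against 28.4% of all genes, and above both for 2, against 15.2% of all genes. The median log2 change was −0.56 for the members and −0.16 over all genes. Without HDAC3-KO library 2, 12 members fell and 1 rose (8.46% of all 10586 genes fell and 599 rose), and without HDAC3-KO library 1, 19 fell and 4 rose (32.6% of all 10564 genes fell and 1608 rose), where the spread of the single HDAC3-KO library left had to be taken from the controls.

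BM pDCs split the set. Of 39 members tested, 20 (51.3%) fell, against 22.5% of all 12716 genes tested, and 6 (15.4%) rose, against 21.6% of all genes tested, while 13 had no call (edgeR quasi-likelihood test on expected counts). The rises were Ifnar2, Zbp1, Oas2, Oas3, Rsad2 and Ifi30. The median log2 change was −0.45 for the members and −0.01 over all genes. Both HDAC3-KO libraries were below both controls in FPKM for 28 members and above both for 9. The share of all genes was not counted for this order, and the median change of all genes on the log2(FPKM + 0.5) scale was −0.15. Of the 23 members that fell in LMPPs and were also tested in BM pDCs, 15 fell there too, which is 65.2% of the LMPP falls and 75.0% of the pDC falls. Over all 10039 genes tested in both, 626 fell in both, which is 35.2% of the LMPP falls and 27.4% of the pDC falls. Without control library 1 the rises were 3, Oas2, Oas3 and Ifi30, and the fall of Ifi35 and the rise of Zbp1 did not pass. Without control library 2 the falls of Gbp7, Ifit1, Ifit2 and Irgm1 did not pass, and the rises of Ifnar2 and Rsad2 did not pass without either control, with adjusted p between 0.057 and 0.21 in these 8 genes. The 15 shared falls were Gbp2, Gbp3, Gbp7, Herc6, Ifi44, Ifih1, Ifit1, Ifit2, Ifit3, Iigp1, Irgm1, Oas1a, Oasl2, Usp18 and Xaf1. Both HDAC3-KO libraries lay below both controls in all 3 cell types for 14 of 39 members (35.9%), against 11.4% of all 9775 genes tested in all 3. They were Cmpk2, Dhx58, Gbp2, Gbp3, Herc6, Ifi44, Ifit1, Ifit2, Isg15, Oas1a, Oasl2, Parp9, Trim30a and Usp18.

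**Figure D1:**
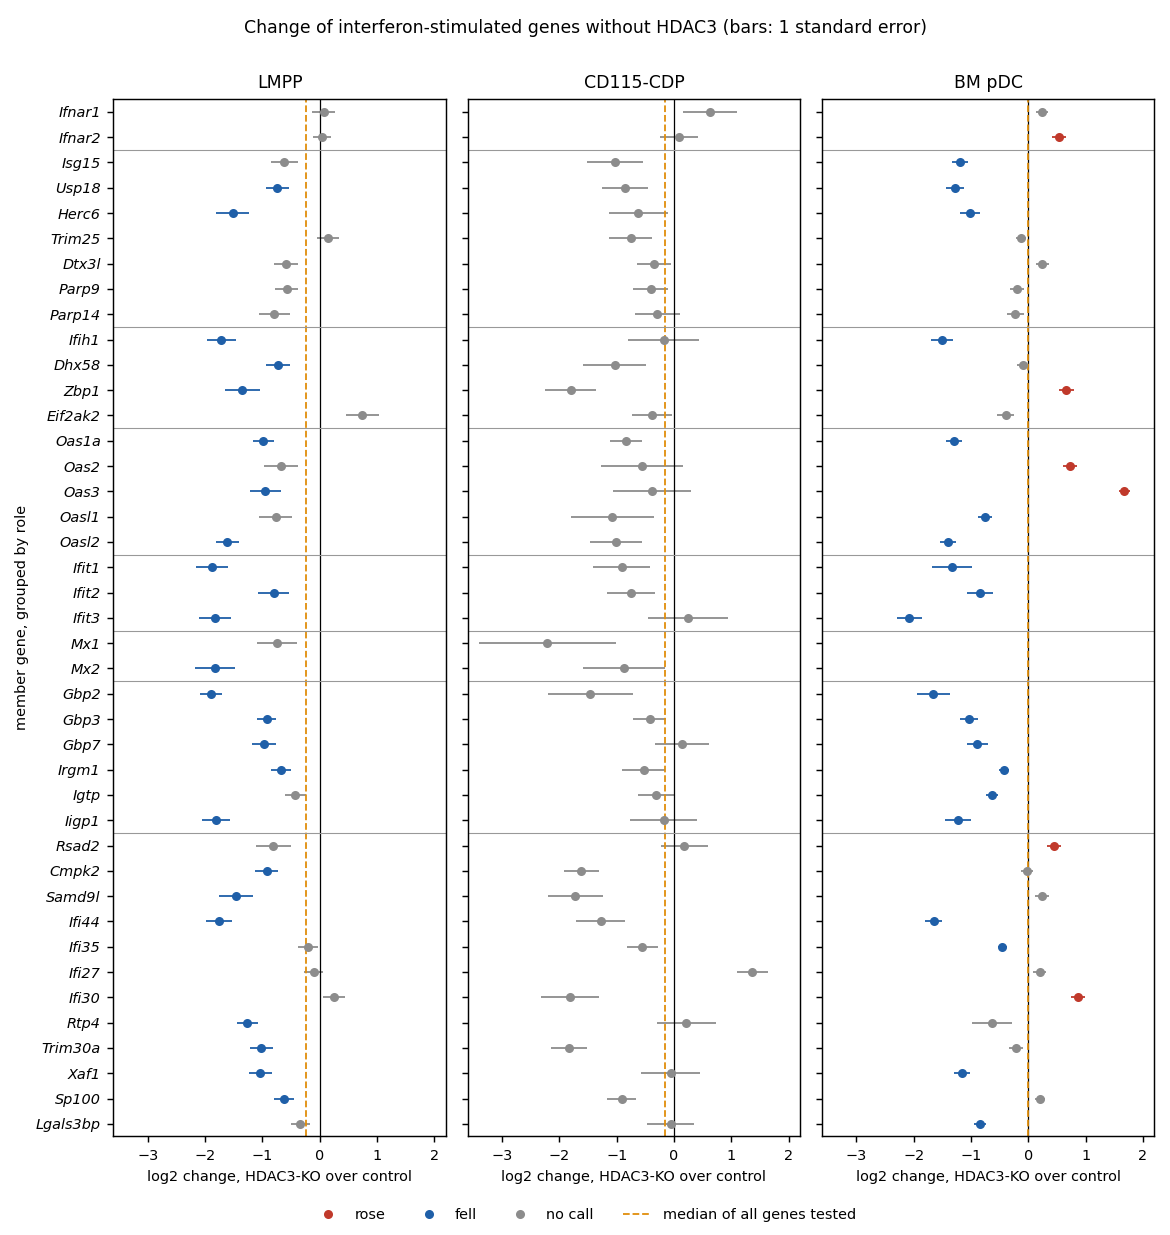
Log2 change of each member, HDAC3-KO over control, in LMPPs, CD115-CDPs and BM pDCs (panels left to right), from limma on log2(FPKM + 0.5) for the first 2 cell types and edgeR on expected counts for BM pDCs. Points are estimates, bars 1 standard error, colours the call, and the dashed line the median of all genes tested (−0.23, −0.16 and −0.01). The 24 falls in LMPPs and 20 falls in BM pDCs sit left of the line, the 6 rises in BM pDCs right of it, and the bars are widest in CD115-CDPs, where no member passed.

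Summed levels of other cell types' markers differed between the genotypes in several lists, and the genes of a list did not all move together. Neutrophil transcripts, summed over 8 markers, were at 50.03 and 18.8 FPKM in HDAC3-KO LMPPs and 618 and 430 FPKM in control LMPPs, where 7 of the 8 fell and none was at 0 in both libraries of a genotype. Monocyte and macrophage markers (10 genes) summed to 289 and 258 FPKM in HDAC3-KO LMPPs and 619 and 609 FPKM in control LMPPs, with 2 falls and 0 rises among 5 tested. T and NK cell markers (6 of 8 in the table) summed to 367 and 451 FPKM in HDAC3-KO LMPPs and 228 and 225 FPKM in control LMPPs, with 1 rise and 1 fall among 2 tested. Of that list, Gzma and Ncr1 were at 0 in both HDAC3-KO LMPP libraries. The progenitor list (6 genes) summed to 3529 and 3656 FPKM in HDAC3-KO LMPPs and 2563 and 2906 FPKM in control LMPPs, with 1 rise and 3 falls. The pDC list summed to 161 and 203 FPKM in HDAC3-KO LMPPs and 214 and 189 FPKM in control LMPPs, with 4 falls and 0 rises among 6 tested. The part of these lists in the falls of the members was not tested. In CD115-CDPs, where no marker gene of any list passed, the T and NK cell list (5 of 8 in the table) summed to 282 and 402 FPKM in HDAC3-KO libraries and 48.7 and 66.3 FPKM in controls. Only 2 genes of that list were tested there, and Cd3e and Gzma were at 0 in both HDAC3-KO libraries. The pDC list there summed to 315 and 226 FPKM in HDAC3-KO libraries and 1394 and 1034 FPKM in controls, and the cDC1 list to 10.4 and 12.7 FPKM in HDAC3-KO libraries and 46.7 and 38.7 FPKM in controls. Their part in the CD115-CDP values was not tested. In BM pDCs the neutrophil sum was 25.4 and 52.8 FPKM in HDAC3-KO libraries and 39.4 and 39.9 FPKM in controls, with 0 calls among 7 markers tested. The cDC1 list (5 genes) summed to 217 and 207 FPKM in HDAC3-KO pDCs and 61.4 and 65.3 FPKM in control pDCs, but 2 of its genes rose and 2 fell. Clec9a alone made up most of that sum, at 208 and 196 FPKM in HDAC3-KO pDCs and 46.3 and 51.2 FPKM in control pDCs. The monocyte and macrophage list summed to 731 and 749 FPKM in HDAC3-KO pDCs and 1469 and 1451 FPKM in control pDCs, with 4 falls and 2 rises among 9 tested. The cDC2 list (4 genes) summed to 187 and 168 FPKM in HDAC3-KO pDCs and 411 and 413 FPKM in control pDCs, with 3 falls and 1 rise. Its gene Itgam ran against that sum, at 43.8 and 55.0 FPKM in HDAC3-KO pDCs and 4.08 and 2.8 FPKM in control pDCs. The progenitor list (6 genes) summed to 261 and 260 FPKM in HDAC3-KO pDCs and 223 and 216 FPKM in control pDCs, with 2 rises and 1 fall. The part of these lists in the pDC results was not tested. Without control library 1, which held the erythroid transcripts, 22 members fell in LMPPs, against 9.25% of all genes.

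Neither receptor subunit gene fell in any of the 3 cell types. Ifnar1 had 18.3 and 14.3 FPKM in HDAC3-KO LMPPs, against 15.3 and 15.6 FPKM in control LMPPs, and the groups overlapped (log2 change 0.07, SE 0.20). Ifnar2 was at 82.7 and 84.1 FPKM in HDAC3-KO LMPPs, against 75.1 and 87.4 FPKM in control LMPPs, and overlapped likewise (log2 change 0.04, SE 0.16). Neither LMPP receptor difference passed the test. In BM pDCs Ifnar2 had 269 and 314 FPKM in HDAC3-KO cells, against 251 and 236 FPKM in controls, and rose by edgeR (log2 change 0.54, SE 0.12, adjusted p = 0.010). On the FPKM scale with limma that difference was 0.25 and did not pass (adjusted p = 0.072). Ifnar1 was at 87.8 and 99.6 FPKM in HDAC3-KO pDCs and 84.1 and 85.4 FPKM in control pDCs, a log2 difference of 0.24 that did not pass (adjusted p = 0.10).

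Among signalling and induction genes, a list of 34 that are no members, 3 rose and 12 fell in LMPPs, with 17 of 32 tested at no call, where 4.31% of all genes rose and 18.8% fell. Genes of the factors that act below the receptor were among the falls. Stat2 had 7.52 and 4.24 FPKM in HDAC3-KO LMPPs, against 10.8 and 13.2 FPKM in control LMPPs (log2 change −1.01, SE 0.27). Irf9, whose product binds the response element, had 36.9 and 27.3 FPKM in HDAC3-KO LMPPs, against 50.2 and 57.5 FPKM in control LMPPs (log2 change −0.75, SE 0.18). Their HDAC3-KO and control libraries did not overlap. Irf7, the factor that amplifies interferon production, fell by 1.21 on the log2 scale, and Ddx58, which encodes the RNA sensor RIG-I, fell by 1.23. The kinase gene Jak2 fell by 1.51, Stat3 by 0.72, the feedback inhibitor Socs3 by 1.04, the RNA-sensing receptor Tlr7 by 1.18 and Irf2, a factor that can repress these genes, by 0.68. Unc93b1, the chaperone of endosomal Toll-like receptors, rose by 0.72 and Irf8, a factor of dendritic cell development, by 0.67.

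In BM pDCs the same list gave 11 rises and 7 falls among 34 tested, where 21.6% of all genes rose and 22.5% fell, and a median log2 change of 0.00. Irf9 and Stat2, singled out after their values were seen, had no call there. Irf9 had 73.4 and 73.9 FPKM in HDAC3-KO pDCs and 69.8 and 70.2 FPKM in control pDCs, while Stat2 had 75.7 and 74.5 FPKM in HDAC3-KO pDCs and 92.8 and 90.8 FPKM in control pDCs. Mb21d1, which encodes the DNA sensor cGAS, rose most among the 12 with the smallest p, with 7.73 and 7.21 FPKM in HDAC3-KO pDCs, against 3.25 and 2.99 FPKM in control pDCs (log2 change 1.43, SE 0.12). The interferon gamma receptor genes Ifngr1 and Ifngr2 rose by 0.82 and 0.72, Irf5 by 0.91, Stat3 by 0.57, the phosphatase gene Ptpn6 by 0.54 and Tmem173, which encodes STING, by 0.66. The kinase gene Ikbke fell by 0.68, Socs3 by 0.61, the ubiquitin ligase gene Cblb by 0.47, Tlr3 by 0.60 and Tlr7 by 0.56. In CD115-CDPs 0 of 32 genes of the list passed.

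The ISG15 system conjugates a small ubiquitin-like protein to other proteins. Isg15, its modifier, had 12.1 and 9.42 FPKM in HDAC3-KO pDCs, against 25.4 and 28.5 FPKM in control pDCs, and fell (log2 change −1.20, SE 0.14, adjusted p = 0.000687, edgeR). In LMPPs Isg15 was at 6.40 and 8.66 FPKM in HDAC3-KO cells and 10.6 and 13.0 FPKM in controls, a difference of −0.62 that missed the threshold (adjusted p = 0.066, limma). Usp18, the protease that removes ISG15 and restrains the receptor, fell in both cell types. It had 17.6 and 12.2 FPKM in HDAC3-KO pDCs, against 37.0 and 42.3 FPKM in control pDCs (log2 change −1.28, SE 0.15), and 11.6 and 9.26 FPKM in HDAC3-KO LMPPs, against 17.2 and 18.1 FPKM in control LMPPs (log2 change −0.74, SE 0.20). Herc6, the main ISG15 ligase of the mouse, had 2.38 and 1.37 FPKM in HDAC3-KO LMPPs, against 5.59 and 6.77 FPKM in control LMPPs (log2 change −1.52, SE 0.29). In BM pDCs Herc6 had 4.97 and 3.13 FPKM in HDAC3-KO cells, against 9.22 and 8.71 FPKM in controls (log2 change −1.02, SE 0.18). The HDAC3-KO and control libraries of Isg15, Usp18 and Herc6 did not overlap in any of the 3 cell types.

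The 4 other ubiquitin and ADP-ribosylation genes had no call in any cell type. Dtx3l and Parp9 encode a ligase and its partner, and their genes overlap head to head on chromosome 16, so that without stated strand information their reads may be shared. Their log2 changes were −0.59 and −0.58 in LMPPs, where Parp14, a related ADP-ribosyltransferase gene, was at −0.79. In BM pDCs these 3 lay between −0.22 and 0.24. Trim25, whose product activates the sensor RIG-I, was at 0.14 in LMPPs, −0.75 in CD115-CDPs and −0.13 in BM pDCs.

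Sensors of foreign nucleic acid moved in different directions. Ifih1, which encodes the long double-stranded RNA sensor MDA5, had 3.62 and 2.77 FPKM in HDAC3-KO LMPPs, against 10.2 and 13.3 FPKM in control LMPPs (log2 change −1.72, SE 0.25, adjusted p = 0.000402, limma). In BM pDCs Ifih1 had 2.47 and 1.41 FPKM in HDAC3-KO cells, against 5.18 and 5.73 FPKM in controls (log2 change −1.51, SE 0.19, adjusted p = 0.000888, edgeR). Both falls left every HDAC3-KO library below every control of its cell type. Dhx58, which encodes LGP2, a partner of MDA5, fell in LMPPs by 0.73 on the log2 scale and was at −0.10 in BM pDCs with no call. Zbp1, a sensor of Z-form nucleic acid that can start cell death, had 2.51 and 5.58 FPKM in HDAC3-KO LMPPs, against 10.6 and 10.2 FPKM in control LMPPs, and fell there (log2 change −1.35, SE 0.30). In BM pDCs Zbp1 had 15.5 and 12.3 FPKM in HDAC3-KO cells, against 10.7 and 12.2 FPKM in controls, and rose by edgeR (log2 change 0.67, SE 0.13). The Zbp1 rise was 0.27 with limma on FPKM and did not pass (adjusted p = 0.14). In CD115-CDPs Zbp1 was at 7.66 and 4.29 FPKM in HDAC3-KO libraries and 25.8 and 17.7 FPKM in controls. Eif2ak2, which encodes the translation-blocking kinase PKR, was at 4.57 and 3.28 FPKM in HDAC3-KO LMPPs and 2.5 and 1.78 FPKM in control LMPPs, the reverse of most members, with no call (log2 difference 0.74, adjusted p = 0.078). In BM pDCs Eif2ak2 was at 12.3 and 8.30 FPKM in HDAC3-KO cells and 14.5 and 15.4 FPKM in controls, again with no call.

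The OAS family, enzymes that make an oligoadenylate messenger that activates RNase L and relatives without that activity, was divided in BM pDCs. Oas3 had 7.64 and 7.36 FPKM in HDAC3-KO pDCs, against 2.47 and 2.68 FPKM in control pDCs, and rose (log2 change 1.68, SE 0.10, adjusted p = 5.2e-05, edgeR). Oas2 had 4.27 and 4.02 FPKM in HDAC3-KO pDCs, against 2.70 and 2.71 FPKM in control pDCs, and rose as well (log2 change 0.73, SE 0.12, adjusted p = 0.0024). Their libraries did not overlap. Oas1a, which lies with Oas2 and Oas3 in 1 cluster on chromosome 5, had 4.63 and 3.80 FPKM in HDAC3-KO pDCs, against 11.6 and 10.9 FPKM in control pDCs, and fell (log2 change −1.30, SE 0.14, adjusted p = 0.000409). The whole gene spans on GRCm38, as distinct from the promoter windows, are for Oas2 chr5:120730333-120749886, for Oas3 chr5:120753098-120777684 and for Oas1a chr5:120896256-120907544. The OAS-like genes, in another cluster of chromosome 5, fell in BM pDCs too. Oasl2 had 13.7 and 10.3 FPKM in HDAC3-KO pDCs, against 33.1 and 36.0 FPKM in control pDCs (log2 change −1.40, SE 0.13). Oasl1, which restrains translation of Irf7, had 6.60 and 5.45 FPKM in HDAC3-KO pDCs, against 10.6 and 11.6 FPKM in control pDCs (log2 change −0.75, SE 0.12).

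**Figure D2:**
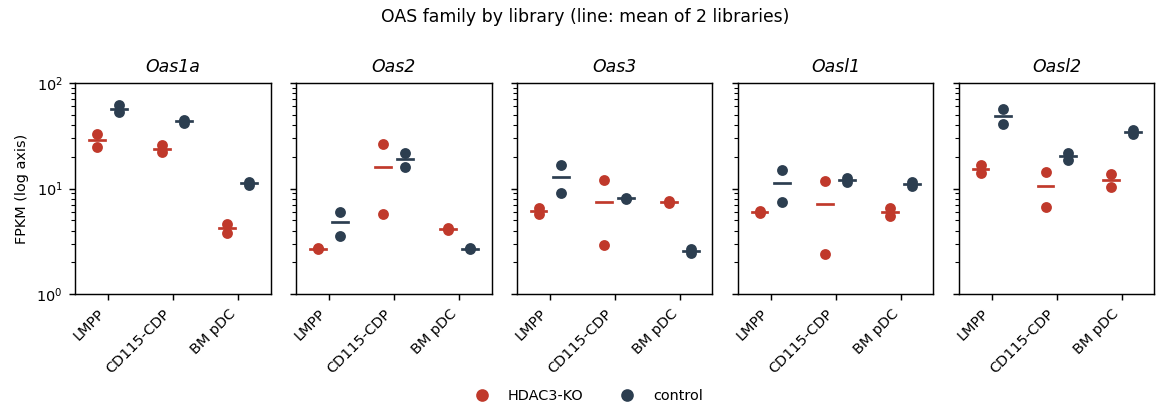
FPKM (log axis) of the OAS family in each library of LMPPs, CD115-CDPs and BM pDCs, with HDAC3-KO left of control, points for libraries and lines for the mean of 2. In BM pDCs both HDAC3-KO libraries of Oas3 (7.64 and 7.36) and Oas2 (4.27 and 4.02) lie above the controls, and those of Oas1a, Oasl1 and Oasl2 lie below them. In LMPPs every HDAC3-KO library lies below both controls for all 5 genes, an order whose share of all genes was not counted.

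In LMPPs both HDAC3-KO libraries were lower than both controls for all 5 genes of the family, an order whose share of all genes was not counted. By adjusted p, 3 of the 5 fell, where 18.8% of all genes fell. Oasl2 had 16.8 and 14.2 FPKM in HDAC3-KO LMPPs, against 40.9 and 56.7 FPKM in control LMPPs (log2 change −1.61, SE 0.20). Oas1a had 24.8 and 32.7 FPKM in HDAC3-KO LMPPs, against 53.2 and 61.1 FPKM in control LMPPs (log2 change −0.99, SE 0.18). Oas3 had 6.49 and 5.73 FPKM in HDAC3-KO LMPPs, against 9.04 and 16.6 FPKM in control LMPPs (log2 change −0.95, SE 0.27), so its direction was opposite in LMPPs and BM pDCs, a difference that was not tested across the separately normalised tables. This LMPP fall of Oas3 rested on control library 2, without which it was −0.53 and did not pass (adjusted p = 0.40). Oas2 and Oasl1 were at −0.68 and −0.77 in LMPPs with no call. In CD115-CDPs the 2 HDAC3-KO libraries disagreed on Oas3, at 12 and 2.91 FPKM, against 8.04 and 8.09 FPKM in controls, and on Oas2, at 26.3 and 5.76 FPKM, against 21.7 and 16.0 FPKM in controls. The OAS genes are close paralogs, and the estimated counts may divide reads among copies in ways that the files do not show.

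The IFIT family, proteins that bind viral RNA ends and block its translation, fell as a whole in LMPPs and in BM pDCs, 3 of 3 in each. Of all genes, 18.8% fell in LMPPs and 22.5% in BM pDCs. Ifit1 had 2.34 and 1.40 FPKM in HDAC3-KO LMPPs, against 7.85 and 8.31 FPKM in control LMPPs (log2 change −1.88, SE 0.28). Ifit3 had 1.20 and 1.10 FPKM in HDAC3-KO LMPPs, against 4.69 and 6.12 FPKM in control LMPPs (log2 change −1.83, SE 0.29). Ifit2 was the smallest change of the family in LMPPs, with 7.02 and 3.72 FPKM in HDAC3-KO cells, against 8.94 and 9.77 FPKM in controls (log2 change −0.81, SE 0.28, adjusted p = 0.049). In BM pDCs Ifit3 showed the largest fall of any member, with 0.90 and 0.74 FPKM in HDAC3-KO cells, against 3.58 and 4.16 FPKM in controls (log2 change −2.08, SE 0.22, adjusted p = 0.000395, edgeR). Ifit2 had 6.35 and 3.75 FPKM in HDAC3-KO pDCs, against 8.54 and 11.5 FPKM in control pDCs (log2 change −0.84, SE 0.23). Ifit1 was low in pDCs, at 0.53 and 0.36 FPKM in HDAC3-KO cells, against 0.97 and 1.53 FPKM in controls (log2 change −1.32, SE 0.35), and this fall did not pass with DESeq2 (adjusted p = 0.056). Ifit3 has a near-identical neighbour in the mouse genome, so its share of reads is uncertain. In CD115-CDPs Ifit3 split the HDAC3-KO libraries, at 3.30 and 13.8 FPKM, against 6.22 and 5.23 FPKM in controls.

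The MX GTPases were measured in both progenitor types. Mx2 was at 0.02 and 0.34 FPKM in HDAC3-KO LMPPs, against 1.80 and 1.88 FPKM in control LMPPs, and fell (log2 change −1.82, SE 0.35). Mx1 was at 0.80 and 0.92 FPKM in HDAC3-KO LMPPs and 1.21 and 2.54 FPKM in control LMPPs, with no call. Both passed the filter of 1 FPKM only through the controls, so their entry into the test favoured a lower HDAC3-KO level. In CD115-CDPs Mx1 was listed at 5.56 and 0 FPKM in HDAC3-KO libraries and at 9.5 and 5.98 FPKM in controls.

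The GTPases of the GBP and IRG families attack the vacuoles of intracellular pathogens and also respond to interferon gamma. They fell in 6 of 6 cases in BM pDCs, where 22.5% of all genes fell, and in 5 of 6 in LMPPs, where 18.8% fell. Gbp2 changed most in LMPPs, with 8.89 and 8.81 FPKM in HDAC3-KO cells, against 31.7 and 37.3 FPKM in controls (log2 change −1.90, SE 0.19, adjusted p = 2.0e-05, limma). In BM pDCs Gbp2 was scarce, at 0.38 and 0.35 FPKM in HDAC3-KO cells, against 1.26 and 1.28 FPKM in controls (log2 change −1.66, SE 0.29). Its neighbours in the cluster on chromosome 3 also fell. Gbp3 had 25.0 and 26.4 FPKM in HDAC3-KO LMPPs, against 49.9 and 48.5 FPKM in control LMPPs, and 2.22 and 1.74 FPKM in HDAC3-KO pDCs, against 4.50 and 4.37 FPKM in control pDCs. Gbp7 had log2 changes of −0.98 (SE 0.21) in LMPPs and −0.89 (SE 0.18) in BM pDCs. These GBP genes resemble each other closely, so reads may be shared among them.

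Iigp1, an IRG effector, had 3.56 and 2.66 FPKM in HDAC3-KO LMPPs, against 12.8 and 11.3 FPKM in control LMPPs (log2 change −1.81, SE 0.25). In BM pDCs it had 5.11 and 3.16 FPKM in HDAC3-KO cells, against 8.94 and 12.4 FPKM in controls (log2 change −1.23, SE 0.23). Irgm1, a regulator of the other IRG proteins, fell less, by 0.68 in LMPPs and by 0.43 in BM pDCs on the log2 scale. Igtp, also known as Irgm3, fell by 0.63 in BM pDCs, and its LMPP difference of −0.43 did not pass. In CD115-CDPs the HDAC3-KO libraries lay on both sides of the controls for Gbp7 and Iigp1.

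Among the other effectors, 7 of 12 fell in LMPPs with 0 rises, where 18.8% of all genes fell and 4.31% rose. In BM pDCs 4 fell and 2 rose, where 22.5% of all genes fell and 21.6% rose. Ifi44, a gene of poorly known function that is a sensitive marker of interferon exposure, had 3.61 and 3.55 FPKM in HDAC3-KO LMPPs, against 13.0 and 13.6 FPKM in control LMPPs (log2 change −1.76, SE 0.23). In BM pDCs it had 9.47 and 6.69 FPKM in HDAC3-KO cells, against 25.7 and 29.6 FPKM in controls (log2 change −1.65, SE 0.15). Ifi44 was also lower in CD115-CDPs, at 5.06 and 9.25 FPKM in HDAC3-KO libraries and 18.8 and 16.1 FPKM in controls, with no call (adjusted p = 0.50). Xaf1, linked to cell death, had 8.61 and 9.12 FPKM in HDAC3-KO LMPPs, against 17.2 and 20.5 FPKM in control LMPPs, and 7.00 and 6.06 FPKM in HDAC3-KO pDCs, against 13.7 and 16.7 FPKM in control pDCs. Its log2 changes were −1.04 (SE 0.20) in LMPPs and −1.16 (SE 0.14) in BM pDCs.

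Other effectors fell in LMPPs and had no call in BM pDCs. Rtp4, a receptor transporter that inhibits RNA viruses, had 22.4 and 17.6 FPKM in HDAC3-KO LMPPs, against 46.2 and 50.8 FPKM in control LMPPs (log2 change −1.27, SE 0.18), and lay under 1 FPKM in every pDC library. Samd9l, an antiviral growth regulator, had 3.68 and 1.82 FPKM in HDAC3-KO LMPPs, against 8.52 and 7.59 FPKM in control LMPPs (log2 change −1.46, SE 0.30), and a log2 difference of 0.24 with no call in BM pDCs. Cmpk2, the mitochondrial nucleotide kinase next to Rsad2, fell by 0.93 in LMPPs and was at −0.03 in BM pDCs with no call. Trim30a, which dampens Toll-like receptor signalling, fell by 1.02 in LMPPs, and Sp100, a component of nuclear bodies, fell there by 0.63, while BM pDCs gave no call for either (−0.21 and 0.20). Whether these changes differ between the cell types was not tested, because the tables were normalised separately.

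Trim30a and Cmpk2 were also the members with the smallest p in CD115-CDPs. Trim30a was at 22.0 and 14.8 FPKM in HDAC3-KO CD115-CDPs and 68.6 and 62.5 FPKM in control CD115-CDPs (log2 difference −1.83, SE 0.32, adjusted p = 0.26, limma). Cmpk2 was at 12.1 and 10.3 FPKM in HDAC3-KO CD115-CDPs and 33.4 and 37.2 FPKM in control CD115-CDPs (log2 difference −1.62, SE 0.31, adjusted p = 0.30). Samd9l was at 1.84 and 3.32 FPKM in HDAC3-KO CD115-CDPs and 8.58 and 10.2 FPKM in control CD115-CDPs. In each of these 3 genes the HDAC3-KO libraries lay well below both controls although the test was not passed. Ifi27, whose product sits in the mitochondrion or nucleus, ran the other way, at 108 and 126 FPKM in HDAC3-KO CD115-CDPs and 49.8 and 40.3 FPKM in control CD115-CDPs (log2 difference 1.37, SE 0.27, adjusted p = 0.31). In LMPPs Ifi27 overlapped between genotypes, and in BM pDCs its log2 difference was 0.20.

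Ifi30, the thiol reductase GILT of antigen processing, differed in direction between BM pDCs and CD115-CDPs. It had 350 and 417 FPKM in HDAC3-KO pDCs, against 242 and 220.1 FPKM in control pDCs, and rose (log2 change 0.87, SE 0.13, adjusted p = 0.0016, edgeR). In CD115-CDPs Ifi30 was at 80.1 and 29.1 FPKM in HDAC3-KO libraries and 198 and 148 FPKM in controls, with no call (log2 difference −1.81, adjusted p = 0.45, limma). Rsad2, which encodes the antiviral enzyme viperin, had 7.26 and 6.14 FPKM in HDAC3-KO pDCs, against 5.01 and 5.79 FPKM in control pDCs, and rose (log2 change 0.44, SE 0.12, adjusted p = 0.020), a call that DESeq2 (adjusted p = 0.053) and limma on FPKM (adjusted p = 0.11) did not give. In LMPPs Rsad2 was at 4.46 and 2.53 FPKM in HDAC3-KO cells and 5.17 and 7.63 FPKM in controls, with no call. Lgals3bp, a secreted glycoprotein, had 56.1 and 44.4 FPKM in HDAC3-KO pDCs, against 101 and 96.8 FPKM in control pDCs, and fell (log2 change −0.84, SE 0.11). Ifi35 fell in BM pDCs by 0.45 and overlapped between genotypes in LMPPs.

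**Figure D3:**
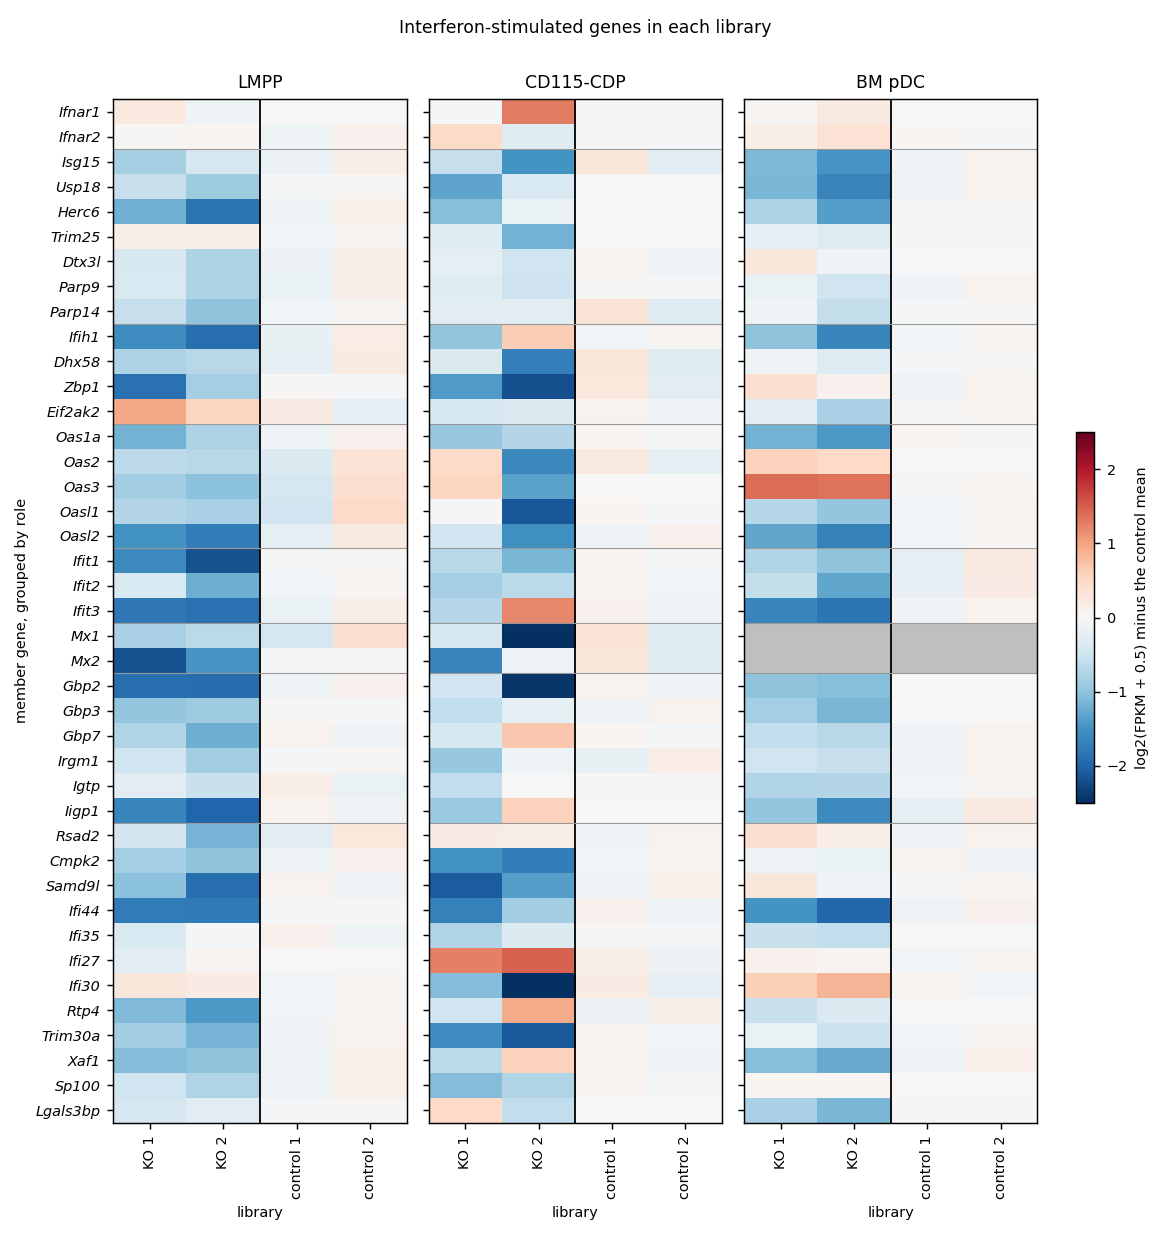
Colour map of log2(FPKM + 0.5) minus the mean of the controls, for each member (rows, grouped by role) in the 4 libraries of each cell type, HDAC3-KO left of control, with colours capped at 2.5 and grey for Mx1 and Mx2 in BM pDCs. In LMPPs 34 members are lower in both HDAC3-KO libraries than in both controls, a count for which the share of all genes was not counted. In CD115-CDPs the HDAC3-KO libraries differ from each other in rows such as Oas3, Ifit3 and Gbp7, and in BM pDCs Oas2, Oas3 and Ifi30 are higher among rows that are mostly lower.

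The 3 tables were normalised separately and the cells were lysed in different buffers, so control levels across cell types are a description without a test. In control BM pDCs 20 of 39 members (51.3%) lay below control LMPPs in both libraries, against 54.2% of all 11340 genes compared, and 14 (35.9%) lay above, against 38.6% of all genes. These shares are close to those of all genes. Stepwise lower levels in LMPPs, CD115-CDPs and BM pDCs were seen for 10 members (25.6%), against 21.5% of all genes, and stepwise higher levels for 11 (28.2%), against 16.4% of all genes. Both receptor genes belonged to the stepwise increases. Ifnar1 was at 15.3 and 15.6 FPKM in control LMPPs, 33.1 and 34.3 FPKM in control CD115-CDPs and 84.1 and 85.4 FPKM in control pDCs. Ifi30 was at 14.6 and 15.9, 198 and 148, and 242 and 220.1 FPKM in the same order of cell types. Eif2ak2, Ifi44, Ifnar2, Parp14, Samd9l, Sp100, Trim25, Trim30a and Usp18 were the other 9 members of that pattern.

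The stepwise decreases included Gbp2, Gbp3 and Gbp7 of the GBP family. Gbp2 was at 31.7 and 37.3 FPKM in control LMPPs, 7.29 and 6.44 FPKM in control CD115-CDPs and 1.26 and 1.28 FPKM in control pDCs, which placed it at the percentiles 77.5 and 80.8 of detected genes in control LMPPs and 32.8 and 33.3 in control pDCs. Rtp4 was at 46.2 and 50.8 FPKM in control LMPPs, 19.5 and 24.2 FPKM in control CD115-CDPs and 0.97 and 0.95 FPKM in control pDCs. Oas1a, Gbp3, Gbp7, Ifi27, Ifih1, Ifit1, Lgals3bp and Oas3 were the other members of this pattern. Isg15, Ifit2 and Oasl1 belonged to neither, and Oasl1 kept similar levels, at 7.51 and 15.1 FPKM in control LMPPs, 12.6 and 11.6 FPKM in control CD115-CDPs and 10.6 and 11.6 FPKM in control pDCs. Falls in HDAC3-KO cells occurred among genes of both patterns, for example Gbp2, lower with each stage in controls, and Ifi44 and Usp18, higher with each stage.

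**Figure D4:**
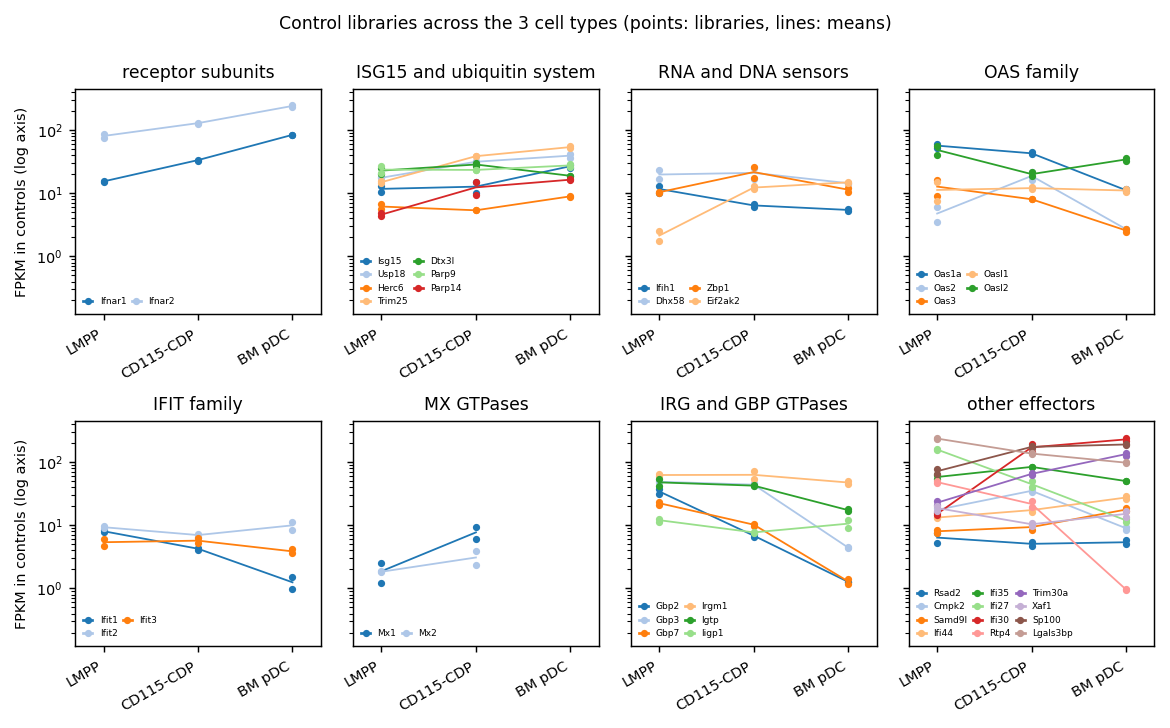
FPKM (log axis) of the members in the control libraries of LMPPs, CD115-CDPs and BM pDCs, 1 panel per role, with points for libraries and lines through their means. Ifnar1 and Ifnar2 are higher at each stage, Gbp2, Gbp7 and Rtp4 drop to about 1 FPKM in BM pDCs, and Oasl1 stays near 11 to 12 FPKM on average.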

How the data were processed

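RNA-seq libraries of LMPPs, CD115-CDPs and BM pDCs were grouped by the genotype in the submitters' labels. Bowtie2, RSEM and mm10 appear in the submitters' processing notes, and neither roles nor versions are stated. The authors deposited FPKM per gene for LMPPs and CD115-CDPs, and expected counts, FPKM and TPM for BM pDCs; the deposited TPM were not used. CD115-CDP rows were named by gene ID through the BM pDC table, and Mx1 and Mx2 through the LMPP table. FPKM of LMPPs and CD115-CDPs were tested with limma 3.58.1 (lmFit, eBayes with trend) in R 4.3.3 on log2(FPKM + 0.5), keeping genes that reached 1 FPKM in 2 or more of the 4 libraries, a scale that understates changes of low genes. Expected counts of BM pDCs were rounded and tested with edgeR 4.0.16 (filterByExpr, TMM, quasi-likelihood), so their log2 changes can differ from ratios of FPKM. Tests were two-sided, with Benjamini-Hochberg adjustment over all genes, and were checked on simulated data. The simulated rises and falls were equal in number and no library stood apart. That check therefore does not cover the excess of falls in LMPPs or HDAC3-KO library 2 of the CD115-CDPs. Tables were handled with Python 3.11.15 and pandas 2.3.3. The members and lists were chosen with earlier results of these data known. All members are reported, pathway genes are named if called (at most 12 per comparison, by smallest p, with 1 gene not reported here), and promoters were shown for called pDC members by size of change, with Oas1a added after its values were seen. DESeq2 1.42.0, other scalings, filters and pseudocounts, a replicate block and leaving out each library were the alternatives.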

Additional observations from a re-analysis of the deposited data

Results flagged for a closer look

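In 8 members both HDAC3-KO libraries lay above both controls in 1 cell type and below both in another. The share of all genes with this pattern was not counted, so the count is description only. These differences were not tested, since the tables of the cell types were normalised separately, and they are given on the log2(FPKM + 0.5) scale, on which the median change over all genes was −0.23 in LMPPs, −0.16 in CD115-CDPs and −0.15 in BM pDCs. For Oas3 the change in BM pDCs (1.38) exceeded that in LMPPs (−0.95) by 2.33. For Oas2 the values were 0.53 in BM pDCs and −0.68 in LMPPs, 1.22 apart. Rsad2 was at 0.29 in BM pDCs and −0.81 in LMPPs, 1.10 apart. For Eif2ak2 the order was the other way, with 0.74 in LMPPs and −0.54 in BM pDCs, 1.28 apart. Ifi30 was at 0.73 in BM pDCs and −1.81 in CD115-CDPs, 2.54 apart. Zbp1 was at 0.27 in BM pDCs and −1.81 in CD115-CDPs, 2.07 apart. Sp100 was at 0.05 in BM pDCs and −0.91 in CD115-CDPs, 0.96 apart, and Trim25 at 0.14 in LMPPs and −0.75 in CD115-CDPs, 0.90 apart. The comparisons with CD115-CDPs include HDAC3-KO library 2, which stood apart from library 1.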

How the results depend on the processing

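In BM pDCs no member changed direction under another tool, scaling or filter, and 14 of the 20 called members that were tested under every alternative kept their call under each, against 9 of 22 in LMPPs. The other called members (Ifit3 and Mx2 in LMPPs and Oas2, Ifit1, Ifit3, Gbp2, Gbp3 and Gbp7 in BM pDCs) were too low to enter at least 1 alternative. Member falls in LMPPs numbered 11 with no filter on low values (16359 genes tested instead of 11146), where 2.76% of all genes fell. With 1 library left out, the median log2 change of the members in LMPPs lay between −0.96 and −0.70, and that of all genes between −0.30 and −0.18. Rises in LMPPs numbered 1 after median ratio rescaling, against 952 of all 11146 genes, and 1 after quantile normalisation, against 777 of all genes. Rises in BM pDCs numbered 3 with limma on FPKM, where falls made up 66.3% of all calls against 50.9% with edgeR, and 3 to 8 with 1 library left out. In CD115-CDPs, leaving out 1 library gave 0 to 19 falls and 0 to 4 rises. The cause of these shifts was not tested.

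Library numbers did not pair the samples, since no label says so and there are only 2 pairs (the deviations of equal numbers correlated at −0.10 in LMPPs, 0.24 in CD115-CDPs and −0.23 in BM pDCs). A replicate block gave 26 falls and 0 rises in LMPPs (18.8% of all genes fell), 4 falls and 1 rise in CD115-CDPs (2.69% fell), and 21 falls and 6 rises in BM pDCs (20.3% fell). A crossed pairing, chosen after seeing the data, gave 30 falls and 0 rises in LMPPs (24.5% of all genes fell) and 21 falls and 6 rises in BM pDCs (22.8% fell).

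Signs turned in members without a call. After median ratio rescaling Ifi35 and Ifi27 were at 0.076 and 0.18 in LMPPs, and Xaf1 and Lgals3bp at 0.066 and 0.068 in CD115-CDPs. After quantile normalisation Ifih1, Iigp1 and Xaf1 were at 0.069, 0.042 and 0.13 in CD115-CDPs. With 1 library left out, log2 changes in LMPPs ranged between −0.11 and 0.24 for Ifnar1, −0.068 and 0.15 for Ifnar2 and −0.28 and 0.070 for Ifi27, and Cmpk2 in BM pDCs between −0.13 and 0.069. In CD115-CDPs they ranged between −0.035 and 1.30 for Ifnar1, −0.31 and 0.48 for Ifnar2, −0.61 and 0.033 for Parp14, −0.99 and 0.62 for Ifih1, −1.61 and 0.48 for Oas2, and −1.33 and 0.55 for Oas3. There they also ranged between −0.71 and 1.20 for Ifit3, −0.40 and 0.68 for Gbp7, −0.62 and 0.0072 for Igtp, −0.93 and 0.57 for Iigp1, −0.49 and 0.92 for Rtp4, −0.68 and 0.57 for Xaf1, and −0.62 and 0.50 for Lgals3bp. With 2 libraries a group and unknown depth in the FPKM tables, members near 1 FPKM are measured least precisely.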
